A study of Homo sapiens with 6 samples.

Results

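The cyclins, the cyclin-dependent kinases (CDKs) and the CDK inhibitors are the proteins that carry a cell through its division cycle. They were taken from the deposited gene table by name: symbols of the form CCN plus a letter and at most 1 digit, CDK plus a number with an optional A or B, the CDKN1 and CDKN2 inhibitors, and CDKN3. The pattern gave 55 of the 35974 genes in the table. By their best-known roles, 5 act in G1, 4 at the G1/S boundary, 2 in S phase and G2, 5 in G2 and mitosis, and 7 are inhibitors. Another 17 act mainly in CDK activation or transcription, and 15 have other or less defined roles. RNA was sequenced from SU-DHL-8, an established line of diffuse large B-cell lymphoma labelled as wild type for DNMT1. The comparison was between 3 libraries of cells given the solvent DMSO and 3 of cells given GSK3685032, an inhibitor of the maintenance DNA methyltransferase DNMT1. For inhibitor replicates 2 and 3 the treatment field gives GSK3685033 and GSK3685034, names found nowhere else in the series, so fold changes and counts were also computed with inhibitor replicate 1 standing alone. The sources used here give neither dose nor duration. No label tells whether the 3 libraries of a group are separate cultures, and p-values therefore reflect library-to-library spread that may be technical.

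A CDK is inactive without its cyclin, and most cyclins of the division cycle are made and destroyed at set times. D-type cyclins with CDK4 or CDK6 begin the phosphorylation of the retinoblastoma protein in G1, E-type cyclins with CDK2 carry it through the G1/S boundary, A-type cyclins serve S phase and G2, and B-type cyclins with CDK1 start mitosis. The INK4 proteins (CDKN2A to CDKN2D) bind CDK4 and CDK6, whereas CDKN1A (p21) and CDKN1B (p27) bind assembled cyclin-CDK complexes. Other members of these families work mainly at RNA polymerase II or in splicing. Many G1/S and G2/M members are transcribed mainly in cycling cells, and in these bulk libraries fewer cells in a phase and less RNA per cell cannot be told apart.

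Depth was 57451935 to 75304441 estimated counts with DMSO and 53846028 to 56795603 with the inhibitor. All 6 B cell markers looked for were present, with a summed level of 862 to 879 FPKM (fragments per kilobase, scaled to library size) with DMSO and 797 to 863 with the inhibitor. Summed T cell markers (3 of 6 in the table, chiefly TRAC) went from 2.02–2.86 to 5.07–6.98 FPKM, myeloid markers from 0.587–0.823 to 0.780–1.08, stromal markers from 0.0988–0.132 to 0.459–0.656 and epithelial markers from 0–0.0144 to 2.74–4.15. Their part in the results below was not tested.

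Genes of the G1/S boundary and of mitosis were mostly lower after the inhibitor, while single members of several families appeared or rose. Of 54 members tested, 27 fell (50.0%) and 16 rose (29.6%) at an adjusted p under 0.05 in edgeR's quasi-likelihood test, and 11 did not pass. Over all 20783 genes tested, 27.3% fell and 38.1% rose (65.4% in all), so among the members the share that fell lay above the background and the share that rose lay below it. Among genes of at least 1 FPKM in at least 3 libraries, a separate fit called 22 of 47 members lower and 16 higher, beside 35.6% and 38.9% of all such genes. Upper-quartile scaling, which raised the median of all genes by 0.172 on the log2 scale, gave 20 members lower and 24 higher, beside 20.9% and 44.8% of all genes. After quantile normalisation limma gave 22 lower and 17 higher of 47 members, beside 39.8% and 34.5% of all genes. Changes of at least 2-fold were found in 9 members that fell and 10 that rose, against 8.1% and 25.3% of all genes. The groups did not overlap in 42 of the 54 members, against 71.7% of all genes. The median log2 change was -0.19 over the members and 0.14 over all genes tested. CCNA1 and CDK20 had 0 counts in every DMSO library and CCNI2 had 4 counts in all, so these passed the filter on low counts only through the inhibitor libraries and had to differ. CDK15, at 0 in every DMSO library and at 0.0104, 0.0209 and 0 FPKM with the inhibitor, was too low to test.

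**Figure D1:**
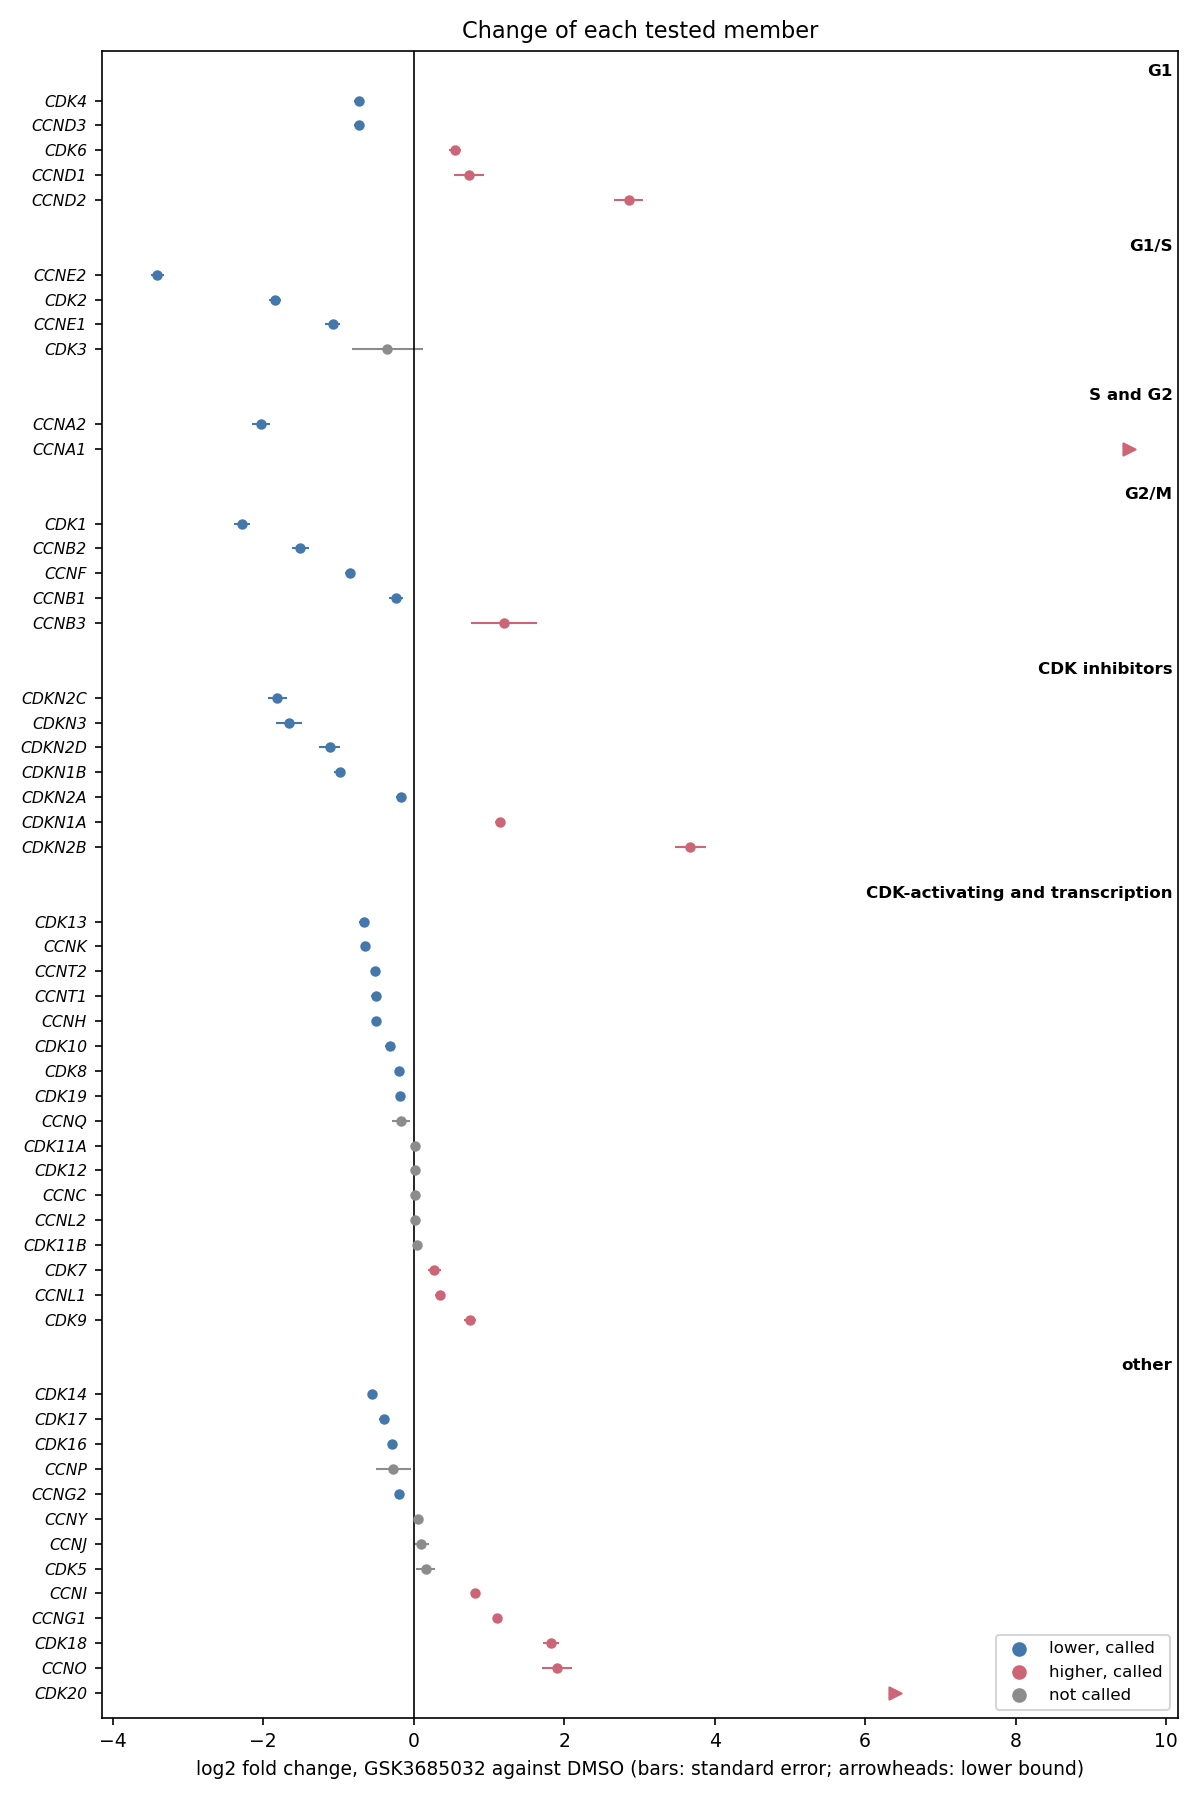
Log2 fold change, inhibitor over DMSO, of the tested members by role (points, with bars of 1 standard error either side of the edgeR estimate; colour marks whether a member passed at an adjusted p of 0.05). Arrowheads give CCNA1 and CDK20, which had no DMSO counts, at their lower bounds. CCNI2 is left out for its 4 DMSO counts. G1/S and G2/M members lie mostly to the left of 0, and the transcription members cluster near 0.

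The G1 kinases and cyclins moved in both directions: 2 of 5 fell and 3 rose, beside 27.3% and 38.1% of all genes. Their median log2 change was 0.55. The abundant pair fell and the scarcer members rose, so the median, in which each gene counts the same, runs against the bulk of the transcripts; among genes of at least 1 FPKM in 3 libraries, which leaves out CCND1 and CCND2, it was -0.63. CCND3, the D-type cyclin that dominates in this line, stood at 188, 212 and 193 FPKM with DMSO and 116, 132 and 112 with the inhibitor. Every inhibitor library lay below every DMSO library (log2 change -0.73, SE 0.0690, edgeR adjusted p = 1.08e-05). CDK4, its catalytic partner, was at 85.9, 85.8 and 84.7 FPKM with DMSO and 54.7, 53.6 and 46.7 after the inhibitor. The fall matched that of CCND3 in size, with no overlap of the groups (log2 change -0.73, SE 0.0651, edgeR adjusted p = 7.01e-06). In GENCODE 29, 43.2% of the exonic bases of CDK4 also lie under TSPAN31 on the opposite strand, and the sources used here do not say whether counting used strand.

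CDK6, the other D-type kinase, had 6.30, 7.35 and 6.36 FPKM with DMSO and 8.97, 10.96 and 9.56 with the inhibitor. All 3 inhibitor libraries were higher (log2 change 0.55, SE 0.0805, edgeR adjusted p = 0.000203). CCND2, the D-type cyclin that many B cells use, was close to silent with DMSO at 0.164, 0.155 and 0.155 FPKM and reached 1.13, 1.39 and 0.956 with the inhibitor. The groups were far apart (log2 change 2.86, SE 0.193, edgeR adjusted p = 1.12e-06), although 13.8% of its exonic bases are shared with AC008012.1 on the same strand. CCND1, rarely expressed in normal B cells, had 0.414, 0.491 and 0.387 FPKM with DMSO and 0.782, 0.729 and 0.658 with the inhibitor. The groups did not overlap, and the level stayed under 1 FPKM throughout (log2 change 0.74, SE 0.200, edgeR adjusted p = 0.00874). LTO1 covers 10.3% of the exonic bases of CCND1 on the opposite strand.

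Within the D-type family these opposite movements changed the make-up little, while the total fell. CCND3 held 99.7% ± 0.0141 of the summed FPKM of the 3 D-type cyclins with DMSO and 98.5% ± 0.109 with the inhibitor (SD, n = 3 each). CCND2 held 0.07997% ± 0.00716 and 0.947% ± 0.0974. The sum fell from 198 ± 12.9 to 122 ± 10.9 FPKM. CDK6 held a larger part of the CDK4 and CDK6 pool, at 7.23% ± 0.566 with DMSO and 16.02% ± 1.68 with the inhibitor, a comparison chosen after the values were seen. By counts, which are not per length, its share was 23.6% and 42.9%. For every share given here the groups did not overlap, and the exact two-sided permutation test gave p = 0.1, the smallest that 3 libraries against 3 allow.

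**Figure D2:**
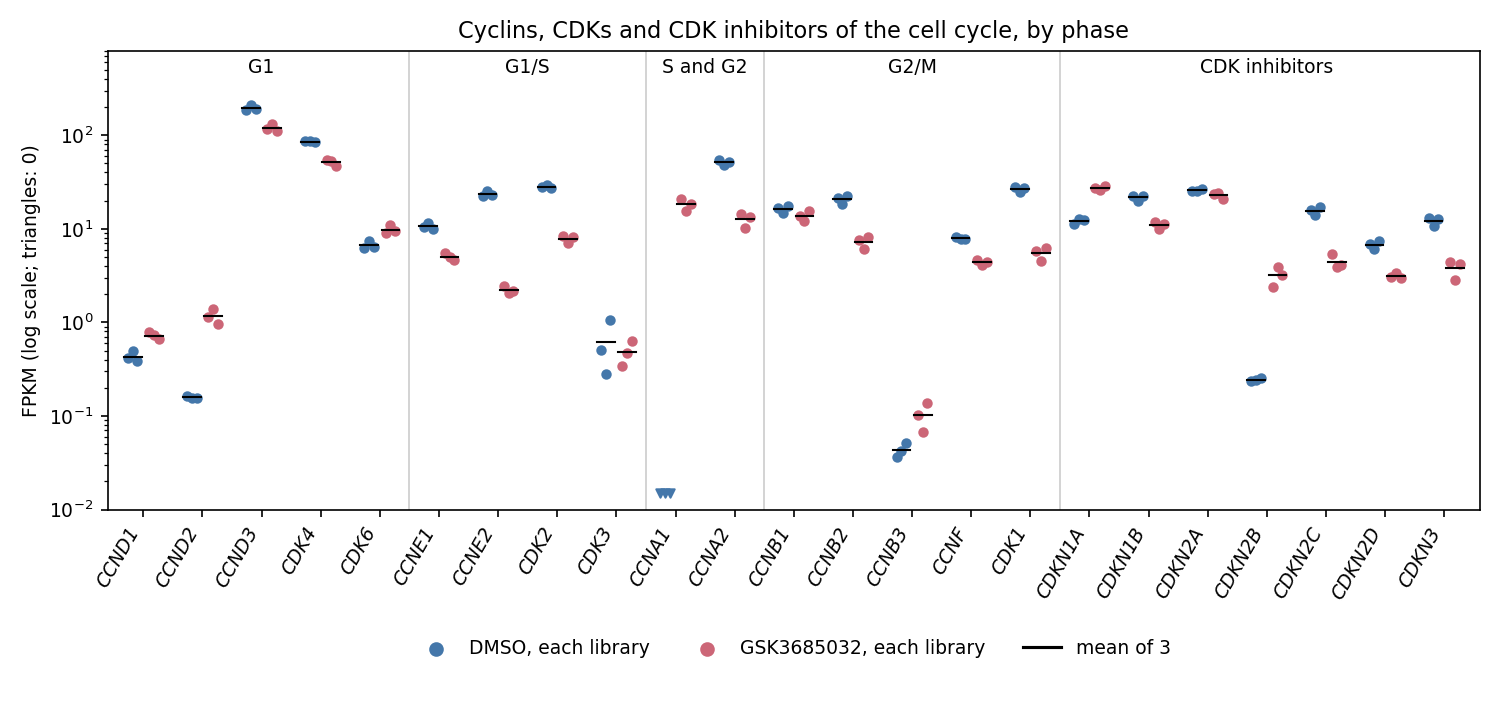
FPKM on a log axis of the core cyclins, CDKs and inhibitors in each library (points) with the group mean (line). DMSO and inhibitor points are separate for all members drawn except CDK3 and CCNB1, and triangles at the foot of the axis mark the DMSO libraries of CCNA1, which are at 0.

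At the G1/S boundary 3 of 4 members fell and 0 rose, beside 27.3% and 38.1% of all genes, with a median log2 change of -1.46. CCNE2, an E-type cyclin transcribed around S-phase entry, stood at 22.5, 25.4 and 22.7 FPKM with DMSO and 2.43, 2.05 and 2.16 with the inhibitor. The fall was 10.6-fold, with a wide gap between the groups (log2 change -3.41, SE 0.0866, edgeR adjusted p = 8.94e-09). On the opposite strand INTS8 covers 37.0% of its exonic bases. CCNE1 had 10.6, 11.5 and 9.97 FPKM with DMSO and 5.48, 5.00 and 4.69 with the inhibitor. It fell too, without overlap, but by less than CCNE2 (log2 change -1.08, SE 0.0964, edgeR adjusted p = 7.17e-06).

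The E-type pool therefore changed in both size and make-up. Its sum was 34.2 ± 2.35 FPKM with DMSO and 7.27 ± 0.561 with the inhibitor (SD, n = 3 each). CCNE2 made up 68.0, 68.9 and 69.5% of it with DMSO and 30.7, 29.05 and 31.5% with the inhibitor, a difference of -38.4 percentage points (exact permutation p = 0.1, two-sided, the smallest possible). CCNE2 was the major E-type transcript in each DMSO library and CCNE1 in each inhibitor library. CDK2, the kinase of both E-type cyclins, was at 28.1, 29.1 and 27.1 FPKM with DMSO and 8.37, 7.03 and 8.14 with the inhibitor. It fell more than CCNE1 and less than CCNE2, again without overlap (log2 change -1.84, SE 0.0738, edgeR adjusted p = 5.41e-08). AC025162.1 covers 14.5% of the exonic bases of CDK2 on the opposite strand. CDK3, a minor kinase reported to act on exit from quiescence, had 0.503, 0.283 and 1.06 FPKM with DMSO and 0.345, 0.471 and 0.641 with the inhibitor. These groups overlapped and the member did not pass (log2 change -0.35, edgeR adjusted p = 0.539), and without DMSO replicate 3 its sign turned to 0.30. It cannot be separated from the readthrough gene TEN1-CDK3, which shares 91.2% of its exonic bases on the same strand.

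**Figure D3:**
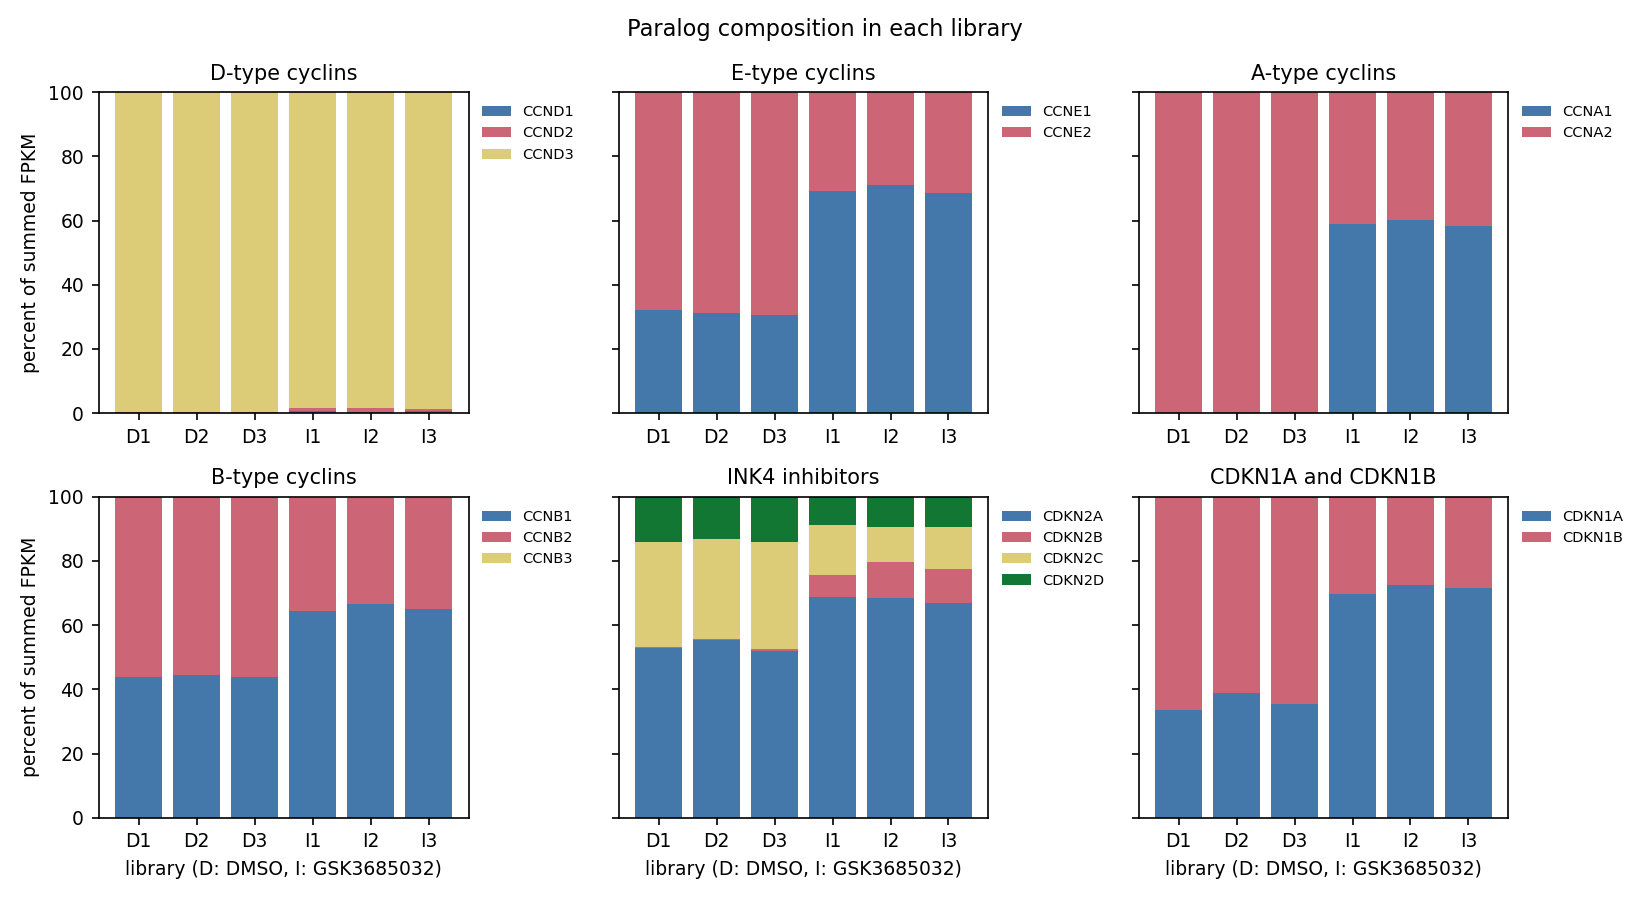
Share of the summed FPKM held by each paralog, in percent, in the DMSO libraries (D1 to D3) and the inhibitor libraries (I1 to I3). The 3 bars of a group resemble each other in each panel, CCNE2 gives way to CCNE1, and CCNA1 is seen only in the inhibitor libraries; the share of CCND2 is too small to see with DMSO.

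The A-type cyclins showed an exchange of paralogs. CCNA2, the A-type cyclin of dividing somatic cells, stood at 54.2, 47.6 and 52.2 FPKM with DMSO and 14.5, 10.1 and 13.3 with the inhibitor. It fell in all 3 inhibitor libraries, without overlap (log2 change -2.03, SE 0.120, edgeR adjusted p = 4.98e-07). CCNA1, a cyclin best known from the male germ line and from some leukaemias, had 0 counts in each DMSO library and 20.8, 15.3 and 18.6 FPKM with the inhibitor. Set against a floor of 12 counts over the DMSO group, about 3 read pairs, it was at least 727-fold higher (counting error only). Because A-type expression with DMSO was all CCNA2, CCNA1 came to hold 59.0, 60.2 and 58.2% of it after the inhibitor, a comparison chosen after the values were seen. The summed A-type level still fell from 51.3 ± 3.40 to 30.9 ± 4.98 FPKM (SD, n = 3 each), and the groups did not overlap. Over these 2 genes a median of the log2 changes, 3.74 with CCNA1 at its bound, describes neither of them.

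The start regions of the 2 A-type genes are shown because one was silent and the other active under DMSO, and because the drug's target writes methylation at CpG dinucleotides. Methylation itself was not analysed here. Each run covers 250 bases before to 50 after a RefSeq transcript start on GRCh38.p14, printed on the gene's strand with every CG in capitals: CCNA1 at chr13:36431705-36432004 on the plus strand, CCNA2 at chr4:121823834-121824133 on the minus strand.
CCNA1: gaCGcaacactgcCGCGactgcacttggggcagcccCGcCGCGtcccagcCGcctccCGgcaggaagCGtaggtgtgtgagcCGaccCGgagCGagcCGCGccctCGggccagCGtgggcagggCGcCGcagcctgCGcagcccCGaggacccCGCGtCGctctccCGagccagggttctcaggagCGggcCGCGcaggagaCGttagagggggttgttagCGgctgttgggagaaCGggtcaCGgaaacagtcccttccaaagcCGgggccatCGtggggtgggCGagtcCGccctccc
CCNA2: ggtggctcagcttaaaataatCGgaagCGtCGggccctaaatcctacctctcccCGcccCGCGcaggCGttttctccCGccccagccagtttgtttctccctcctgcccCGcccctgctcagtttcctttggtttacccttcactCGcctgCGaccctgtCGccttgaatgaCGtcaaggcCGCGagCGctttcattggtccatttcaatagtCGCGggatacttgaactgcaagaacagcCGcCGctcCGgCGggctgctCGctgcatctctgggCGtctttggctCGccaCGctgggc
The RefSeq start used for CCNA1 lies 435 bases inside the gene as placed in the deposited table, so its whole window lies within that gene. For CCNA2 the distance is 0. The CCNA1 window held 35 CpG dinucleotides and the CCNA2 window 26. The median over 35116 RefSeq windows of this length was 14, and 14.1% of windows had at least as many as CCNA1. Over the 51 members with a window the median was 28, so a CpG-rich start is usual in these families and is not particular to the silent gene.

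Of the 5 G2/M members 4 fell and 1 rose, beside 27.3% and 38.1% of all genes, with a median log2 change of -0.85. CDK1, the kinase of mitotic entry, had 28.1, 25.01 and 27.3 FPKM with DMSO and 5.76, 4.58 and 6.20 with the inhibitor. The groups were well separated (log2 change -2.29, SE 0.103, edgeR adjusted p = 1.03e-07). CCNB2, a B-type cyclin of the Golgi and cytoplasm, had 21.2, 18.4 and 22.2 FPKM with DMSO and 7.55, 6.12 and 8.17 with the inhibitor. It fell without overlap (log2 change -1.51, SE 0.110, edgeR adjusted p = 1.93e-06). CCNB1, the principal activator of CDK1, hardly moved, at 16.7, 14.8 and 17.3 FPKM with DMSO and 13.9, 12.3 and 15.5 with the inhibitor. These groups overlapped, since inhibitor replicate 3 lay above DMSO replicate 2. The fall passed narrowly (log2 change -0.24, SE 0.0920, edgeR adjusted p = 0.0468) and no longer did so without DMSO replicate 1 (adjusted p = 0.105), DMSO replicate 3 (0.15), inhibitor replicate 1 (0.0832) or inhibitor replicate 2 (0.144). Nor did it pass with upper-quartile scaling (edgeR adjusted p = 0.575) or among genes of at least 1 FPKM (edgeR adjusted p = 0.189).

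CCNF, which directs a ubiquitin ligase rather than a CDK, had 8.21, 7.70 and 7.80 FPKM with DMSO and 4.65, 4.08 and 4.46 with the inhibitor. Its groups did not overlap (log2 change -0.85, SE 0.0674, edgeR adjusted p = 3.26e-06). CCNB3, a largely meiotic cyclin, was near the detection limit at 0.0361, 0.0418 and 0.0510 FPKM with DMSO and 0.103, 0.0672 and 0.136 with the inhibitor. All inhibitor libraries were higher (log2 change 1.20, SE 0.436, edgeR adjusted p = 0.0346). However, the call rests on 13 to 44 counts a library, at about 4 counts a read pair. It ended without any one of the libraries other than inhibitor replicate 2 (edgeR adjusted p = 0.0589 to 0.131). CCNB1 made up 44.1% ± 0.379 of B-type FPKM with DMSO and 65.3% ± 1.03 with the inhibitor (SD, n = 3 each), while the B-type sum fell from 36.9 ± 3.34 to 21.2 ± 2.68 FPKM. CDK1 and CDK2 together fell from 54.9 ± 1.09 to 13.4 ± 1.52 FPKM. These sums and shares were chosen after the values were seen, and none of their groups overlapped.

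Start regions of 3 mitotic genes are shown because CDK1 and CCNB2 fell clearly while CCNB1, from the same phase, barely moved. Cell cycle genes of late phases often carry CCAAT boxes and a cell cycle homology region near their start. That region was searched only in the spellings TTTGAA and TTCGAA, so a gene without a match is not shown to lack it. Each run covers 130 bases before to 30 after a RefSeq start on GRCh38.p14, all on the plus strand: CDK1 at chr10:60778348-60778507, CCNB1 at chr5:69167020-69167179 and CCNB2 at chr15:59105016-59105175. Capitals mark TTTGAA and CCAAT on either strand, so TTCAAA and ATTGG in capitals are matches on the opposite strand.
CDK1: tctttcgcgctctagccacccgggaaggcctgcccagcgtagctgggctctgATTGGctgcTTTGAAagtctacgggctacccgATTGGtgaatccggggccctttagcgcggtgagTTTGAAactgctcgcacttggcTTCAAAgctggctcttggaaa
CCNB1: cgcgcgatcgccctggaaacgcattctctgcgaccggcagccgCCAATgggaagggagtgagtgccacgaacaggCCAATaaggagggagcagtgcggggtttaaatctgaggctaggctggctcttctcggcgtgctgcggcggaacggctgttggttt
CCNB2: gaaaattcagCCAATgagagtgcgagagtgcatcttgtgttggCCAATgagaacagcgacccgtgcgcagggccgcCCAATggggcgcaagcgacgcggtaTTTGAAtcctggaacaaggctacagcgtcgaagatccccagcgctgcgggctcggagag
The 300-base windows from which these runs were taken held 5 such matches each in CDK1 and CCNB2 and 2 in CCNB1, both of them CCAAT. In these windows the leftmost base of TTTGAA, counted from the RefSeq start, lay at -69 and -13 in CDK1 and at -29 in CCNB2. The CCNB1 run holds tttaaa in lower case, a spelling that was not searched, so the match counts do not set CCNB1 apart. CDK1 had 2 windows, and the run shown came from the one farther from the gene start in the deposited table. Of these motifs the nearer window held only TTTGAA at -161 and CCAAT at -150, from its own start. The number of matches in CDK1 thus depends on the window. Over all windows of a gene, TTTGAA on either strand was found in 3 of 5 G2/M members (CDK1, CCNB2 and CCNF) and in 8 of 51 members in all (15.7%), against 18.2% of 27305 genes. CCAAT was found in 4 of 5 G2/M members and 22 of 51 members (43.1%), against 39.7% of all genes. TTCGAA occurred in CCNF alone (1.82% of all genes). The E2F-type motif TTCCCGC occurred in CDK19 and CDKN2C (7.82% of all genes) and TTGGCGC in CCNL1, CDK1, CDK11B and CDK16 (3.66%). These are letter matches in short windows, and the shares among the members are close to those among all genes for CCAAT and TTTGAA. CCND1, CCND2, CCNE2 and CDK2 had no window in the table used.

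Of the 7 CDK inhibitors 5 fell and 2 rose, beside 27.3% and 38.1% of all genes, with a median log2 change of -0.98. CDKN1A, the p21 inhibitor that p53 induces, had 11.3, 12.8 and 12.4 FPKM with DMSO and 27.0, 25.8 and 28.4 with the inhibitor. It rose in all 3 libraries without overlap (log2 change 1.15, SE 0.0621, edgeR adjusted p = 2.89e-07). CDKN1B, the p27 inhibitor typical of resting lymphocytes, went the other way, from 22.4, 20.0 and 22.6 FPKM to 11.8, 9.88 and 11.4. Its groups did not overlap either (log2 change -0.98, SE 0.0762, edgeR adjusted p = 2.76e-06). The summed level of these 2 genes was 33.8 ± 1.10 FPKM with DMSO and 38.1 ± 2.11 with the inhibitor, while the CDKN1A share went from 36.0% ± 2.75 to 71.1% ± 1.36 (SD, n = 3 each; chosen after the values were seen). By counts, which are not per length, the CDKN1A share was 15.4% and 44.4%. CDKN1B counts fell from 12786, 14858 and 14990 to 6756, 5628 and 6145. That was more than CDKN1A counts rose, from 2097, 3077 and 2656 to 5023, 4764 and 4972. Which of the pair is larger with the inhibitor, and whether their sum rises or falls, thus depends on the unit.

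CDKN2B, the p15 INK4 protein, stood at 0.239, 0.241 and 0.253 FPKM with DMSO and 2.38, 3.93 and 3.23 with the inhibitor. The rise was 12.8-fold, and no inhibitor library came near the DMSO range (log2 change 3.68, SE 0.209, edgeR adjusted p = 3.87e-07). Its neighbour on chromosome 9, CDKN2A, which encodes p16 and ARF, was at 25.6, 25.1 and 26.9 FPKM with DMSO and 23.8, 24.4 and 20.9 with the inhibitor. That difference was small and passed narrowly (log2 change -0.17, SE 0.0658, edgeR adjusted p = 0.0401). It ended without DMSO replicate 1, 2 or 3 or inhibitor replicate 3 (edgeR adjusted p = 0.051 to 0.111) and turned to 0.03 after quantile normalisation. In addition, 7.9% of its exonic bases lie under CDKN2B-AS1 on the opposite strand. The gene-level value does not separate the p16 and ARF transcripts.

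CDKN2C, the p18 INK4 protein needed for plasma cell differentiation, had 15.7, 14.1 and 17.2 FPKM with DMSO and 5.37, 3.94 and 4.10 with the inhibitor. It fell without overlap (log2 change -1.81, SE 0.130, edgeR adjusted p = 1.69e-06). CDKN2D, the p19 INK4 protein, had 6.93, 6.06 and 7.37 FPKM with DMSO and 3.09, 3.35 and 2.96 with the inhibitor. This too was a fall without overlap (log2 change -1.12, SE 0.140, edgeR adjusted p = 7.1e-05). CDKN3, a phosphatase that acts on CDK2 and CDK1 and is itself transcribed late in the cycle, had 13.0, 10.6 and 12.6 FPKM with DMSO and 4.43, 2.83 and 4.23 with the inhibitor. All inhibitor libraries were lower (log2 change -1.65, SE 0.171, edgeR adjusted p = 1.96e-05). The INK4 pool as a whole fell from 48.6 ± 3.09 to 33.8 ± 2.34 FPKM. Within it CDKN2B went from 0.504% ± 0.0225 to 9.42% ± 2.23, CDKN2C from 32.2% ± 1.18 to 13.2% ± 2.23 and CDKN2A from 53.3% ± 1.68 to 68.1% ± 0.940 (SD, n = 3 each), shares chosen after the values were seen.

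The 17 members that activate CDKs or work in transcription changed little: 8 fell (47.1%), 3 rose (17.6%) and 6 did not pass. None moved by as much as 2-fold. Of all genes 27.3% fell and 38.1% rose (65.4% in all). The median log2 change of the 17 was -0.16, turning to 0.01 with upper-quartile scaling and 0.02 after quantile normalisation. CCNC, the cyclin of the Mediator kinase module, had 21.5, 21.7 and 20.0 FPKM with DMSO and 19.8, 22.1 and 22.5 with the inhibitor. Its groups overlapped (log2 change 0.02, edgeR adjusted p = 0.782, and called higher only with upper-quartile or quantile scaling). CDK11B, a kinase of splicing, had 29.7, 29.8 and 31.3 FPKM with DMSO and 30.2, 32.4 and 31.5 with the inhibitor. These values overlapped as well (log2 change 0.04, edgeR adjusted p = 0.389, but called higher with both of those scalings and among genes of at least 1 FPKM), and reads of CDK11B and its near-identical copy CDK11A cannot be assigned with certainty. CCNL1, a cyclin of the same splicing kinases, had 18.0, 18.5 and 18.1 FPKM with DMSO and 20.9, 23.0 and 25.9 with the inhibitor. It rose slightly without overlap (log2 change 0.34, SE 0.0635, edgeR adjusted p = 0.000915).

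The elongation factor P-TEFb pairs CDK9 with cyclin T, and its parts moved apart. CCNT1 had 21.9, 24.8 and 21.0 FPKM with DMSO and 15.99, 16.2 and 15.8 with the inhibitor. It fell without overlap (log2 change -0.50, SE 0.0633, edgeR adjusted p = 7.3e-05), as did CCNT2 (log2 change -0.51, edgeR adjusted p = 1.73e-05). CDK9 had 11.97, 10.2 and 12.7 FPKM with DMSO and 20.2, 19.5 and 19.1 with the inhibitor. It rose (log2 change 0.75, SE 0.0794, edgeR adjusted p = 2.35e-05) and was, like CCNT2 and the next genes, singled out after its values were seen. A similar split was seen in the CDK-activating kinase, where CCNH fell (log2 change -0.50, edgeR adjusted p = 1.78e-05) and CDK7 rose (0.28, edgeR adjusted p = 0.0219). MNAT1, a partner of this kinase outside the name pattern, did not pass (log2 change -0.07, edgeR adjusted p = 0.549). The CDK7 call ended without DMSO replicate 1 or 3 or inhibitor replicate 1 or 2 (edgeR adjusted p = 0.0576 to 0.0886). The elongation pair CCNK and CDK13 fell (log2 changes -0.65 and -0.67), with 59.5% of CCNK exonic bases under CCDC85C on the opposite strand, and CDK12 did not pass (0.01, edgeR adjusted p = 0.796, called higher with upper-quartile or quantile scaling and among genes of at least 1 FPKM).

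Among the 15 other members 4 fell, 6 rose and 4 did not pass, with 1 untested. These shares of the tested ones, 28.6% and 42.9%, lie near those of all genes (27.3% and 38.1%), and CDK20 and CCNI2 among the 6 had to differ, as said above. CCNG1, an atypical cyclin and a p53 target, had 11.2, 10.7 and 11.7 FPKM with DMSO and 23.5, 23.4 and 25.8 with the inhibitor. It rose without overlap (log2 change 1.10, SE 0.0568, edgeR adjusted p = 2.22e-07). CCNI, a cyclin abundant in post-mitotic cells, had 19.2, 19.5 and 19.9 FPKM with DMSO and 34.6, 34.8 and 33.9 with the inhibitor. The rise was even across the libraries (log2 change 0.81, SE 0.0418, edgeR adjusted p = 2.24e-07). CCNO, known from multiciliated cells, had 0.558, 0.630 and 0.675 FPKM with DMSO and 2.27, 2.38 and 2.43 with the inhibitor. Its groups did not overlap (log2 change 1.904, SE 0.198, edgeR adjusted p = 2e-05).

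CDK18, a kinase of the PCTAIRE group, had 0.980, 0.846 and 0.867 FPKM with DMSO and 3.33, 3.31 and 3.00 with the inhibitor. It rose (log2 change 1.82, SE 0.107, edgeR adjusted p = 4.67e-07), while its relatives CDK16 and CDK17 fell (log2 changes -0.29 and -0.40; CDK16 did not pass with upper-quartile scaling). CDK20, singled out after its values were seen, had no counts in any DMSO library and 0.737, 0.910 and 0.802 FPKM with the inhibitor. Over the floor of 12 counts it was at least 83.9-fold higher. CCNG2, which is typical of non-dividing cells, moved against CCNG1 (log2 change -0.19, edgeR adjusted p = 0.00729) but did not pass with upper-quartile or quantile scaling or among genes of at least 1 FPKM.

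The enzymes that switch CDKs on and off were examined through 3 lists of genes outside the name pattern. Of 16 CDK switch enzymes and adaptors 12 fell and 4 rose, beside 27.3% and 38.1% of all genes, with a median log2 change of -1.05. One of the 4 that rose, CDC14B, had 0 counts in every DMSO library and passed the filter on low counts only through the inhibitor libraries. CDC25A, the phosphatase that releases CDK2 and CDK1 from inhibition, had 36.0, 42.6 and 37.0 FPKM with DMSO and 7.72, 5.55 and 6.61 with the inhibitor. Its groups were far apart (log2 change -2.54, SE 0.121, edgeR adjusted p = 1.39e-07). The opposing kinase PKMYT1 fell nearly as far (log2 change -2.43, edgeR adjusted p = 6.3e-08), as did the mitotic phosphatase CDC25C (-2.32, edgeR adjusted p = 3.47e-06) and MASTL, the kinase that holds back PP2A in mitosis (-2.36, edgeR adjusted p = 1.4e-07). Activators and inhibitors of CDK1 thus fell side by side, while CDC25B, named after its value was seen, rose (log2 change 1.55, edgeR adjusted p = 1.87e-08).

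Of 14 genes for the pocket proteins and the DREAM and MuvB complexes, which repress and then activate cell cycle promoters, 10 fell, 2 rose and 2 did not pass, beside the same 27.3% lower and 38.1% higher of all genes, with a median log2 change of -1.06. FOXM1, the activator of mitotic genes, had 32.1, 28.4 and 28.8 FPKM with DMSO and 6.79, 4.78 and 6.47 with the inhibitor. No inhibitor library approached the DMSO range (log2 change -2.31, SE 0.121, edgeR adjusted p = 2.47e-07). The pocket protein RBL1 (p107), itself a cell cycle gene, fell by 2.08 on the log2 scale (edgeR adjusted p = 1.43e-07) while RBL2 (p130), the pocket protein of resting cells, named after its value was seen, rose by 0.51 (edgeR adjusted p = 4.21e-05). MYBL2, the partner of MuvB in S phase, and TFDP2, a partner of E2F proteins, fell by 1.66 (edgeR adjusted p = 9.91e-08) and 1.56 (edgeR adjusted p = 1.22e-08).

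Of 21 partners and relatives of the families, 19 were tested, of which 6 fell, 6 rose and 7 did not pass, with a median log2 change of -0.04. These counts lie near the shares of all genes (27.3% lower and 38.1% higher), and CCNJL, with 5 DMSO counts in all, passed the filter on low counts only through the inhibitor libraries. HEXIM1, which holds P-TEFb in its inactive state, had 8.57, 7.95 and 8.55 FPKM with DMSO and 39.6, 33.5 and 39.2 with the inhibitor. It rose without overlap (log2 change 2.16, SE 0.0746, edgeR adjusted p = 2.62e-08) and by more than CDK9. CCNYL1, a relative of CCNY, rose by 1.31 (edgeR adjusted p = 4.51e-06), and CCNY itself did not pass (log2 change 0.06, edgeR adjusted p = 0.324, called higher with upper-quartile or quantile scaling and among genes of at least 1 FPKM). CDKN2AIP, which binds ARF, fell by 1.45 (edgeR adjusted p = 1.32e-07), and the CDK-like kinase CDKL3 fell by 0.98 (edgeR adjusted p = 0.00414). CABLES1, an adaptor that links CDKs to a tyrosine kinase, stayed under the level for naming and is given after its values were seen: it had 0.0374, 0.0413 and 0.0508 FPKM with DMSO and 0.719, 0.557 and 0.428 with the inhibitor. It rose 12.8-fold without overlap (log2 change 3.68, SE 0.298, edgeR adjusted p = 3.68e-06).

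**Figure D4:**
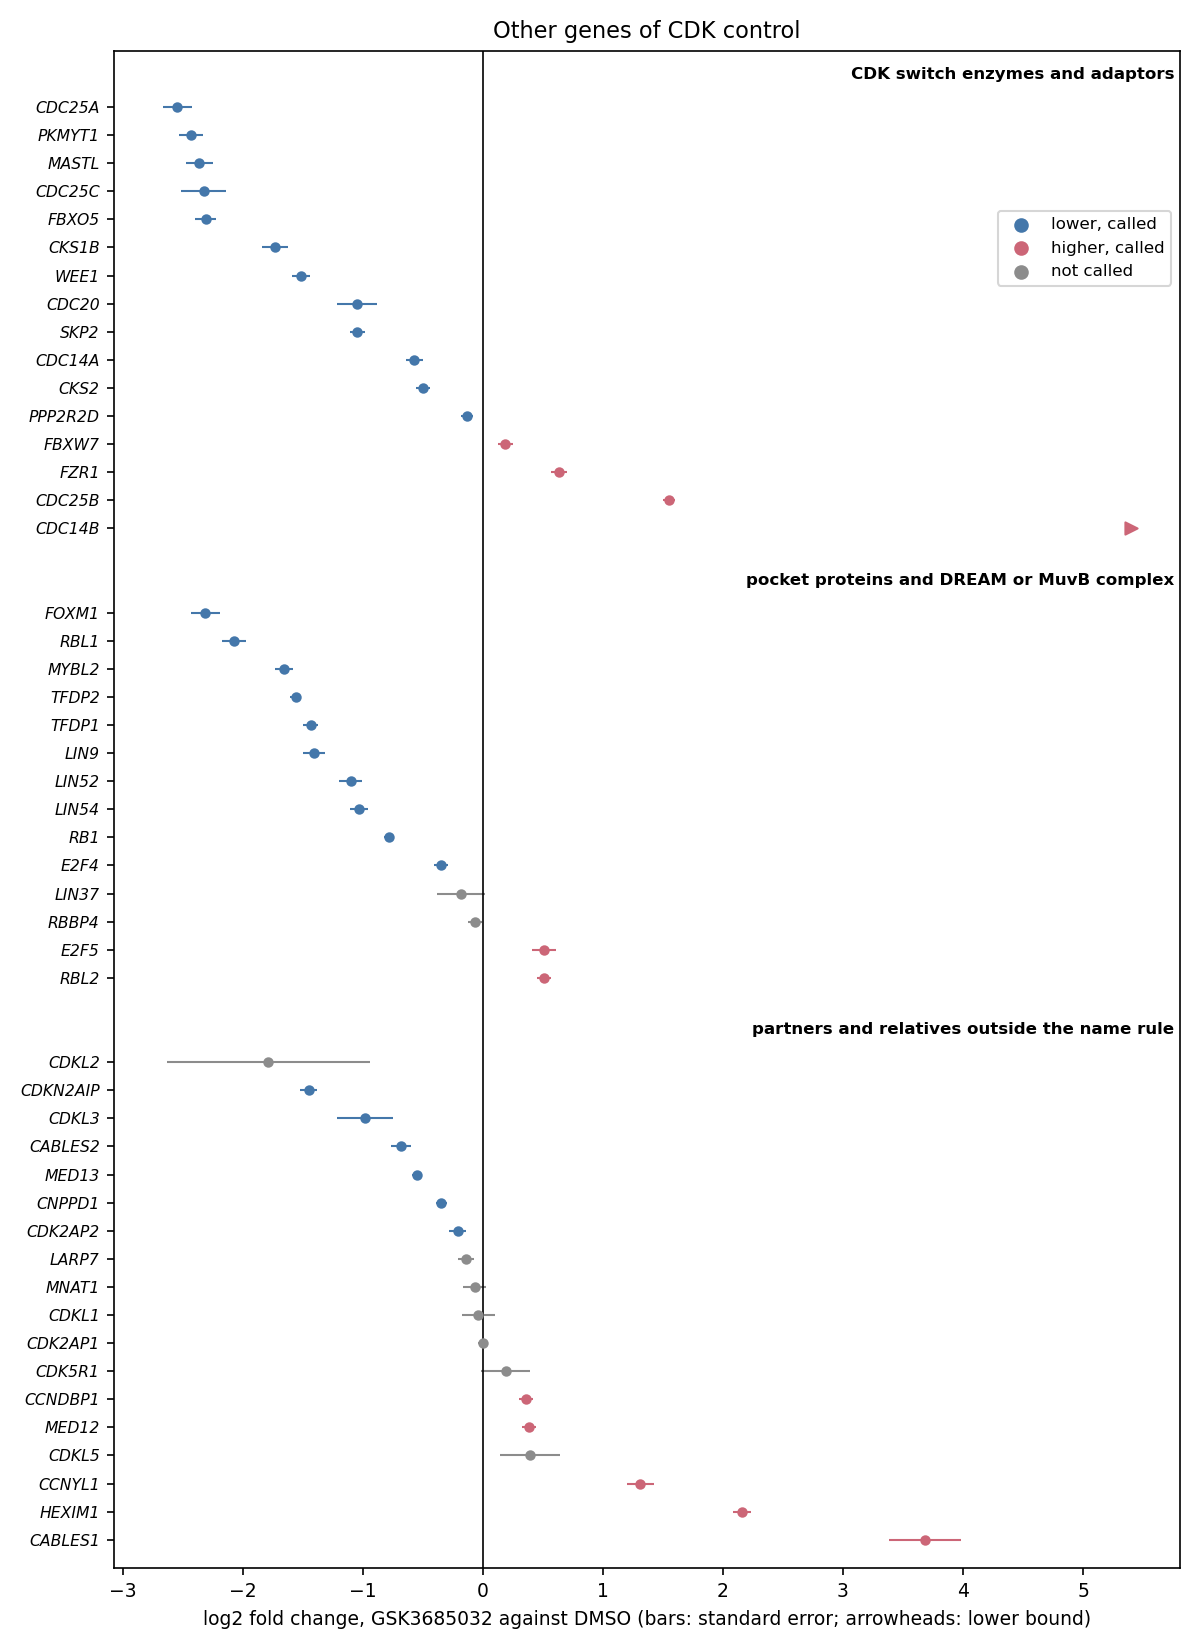
Log2 fold change, inhibitor over DMSO, of the tested genes of the 3 lists outside the name pattern (points with 1 standard error either side; colour marks whether a gene passed at an adjusted p of 0.05; CDC14B, without DMSO counts, is an arrowhead at its lower bound, and CCNJL is left out for its few DMSO counts). The switch enzymes and the pocket and DREAM genes lie mostly left of 0, with CDC25B, FZR1 and RBL2 among those to the right, and the partners and relatives spread around 0.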

How the data were processed

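Poly(A) RNA of 6 SU-DHL-8 libraries was sequenced, per the labels' protocols. For 35974 genes the deposited table gives, per library, estimated counts and FPKM (fragments per kilobase, scaled to library size) made by the authors. The tools listed in the submitters' processing notes are StringTie 2.1.6, HISAT2 2.2.1, cutadapt 1.9, edgeR and DESeq2, without roles, and mm10 is the build named. The gene IDs are human: 34105 matched GENCODE release 29, and all 55 members overlapped their GRCh38 position there. On average 1319.8 genes a library had a count of 4, against 725.8 with 3 and 474.5 with 5, so 4 counts were read as about 1 read pair, and the floor for a gene absent with DMSO was 12 counts over the group. The counts were whole and were not rounded.

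Counts were tested with edgeR 4.0.16 (R 4.3.3) using filterByExpr, TMM factors (0.981 to 1.02), the quasi-likelihood test, two-sided, and Benjamini-Hochberg adjustment over 20783 genes, called at 0.05, with no replicate block. Standard errors come from that fit. The script was tested on simulated data. Shares of paralogs were compared with an exact permutation test. Alternatives were DESeq2 1.42.0, RLE and upper-quartile scaling, other filters, counts divided by 4, limma 3.58.1 on log2(FPKM + 0.5), the same with 0.1 or 1 added or after quantile normalisation, a replicate block, leaving out each library, and inhibitor replicate 1 alone.

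Members, gene lists and tests were chosen with earlier results of these data known. Named were all members of the cycle phases and inhibitors; of the remaining members, those called at least 2-fold changed with a mean of at least 1 FPKM in a group and the 6 with the highest mean FPKM; and from each list of other genes up to 4 called genes with the largest change among those with a mean of at least 1 FPKM in a group. Promoter windows and their motifs come from RefSeq (GRCh38.p14; 51 of 55 members matched). The CCNA1 window was added after its values were seen. Within groups no libraries were identical.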

Additional observations from a re-analysis of the deposited data

How the results depend on the processing

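Of 54 tested members, 35 kept their call and direction in every alternative that tested them, and 19 changed in at least one. The members called lower numbered 20 (upper-quartile scaling) to 27 over all alternatives and those called higher 11 (limma on FPKM) to 24 (upper-quartile scaling). Upper-quartile scaling gave 5 CDK-activating and transcription members lower and 8 higher, 2 other members lower, and medians of 0.72 (G1), -1.29 (G1/S), -0.68 (G2/M), -0.81 (inhibitors), 0.00813 (transcription) and 0.30 (other); this scaling raised all genes, as given above. Requiring 1 FPKM in 3 libraries removed CCND1, CCND2, CDK3 and CCNB3 and so left 1 G1 member and 0 G2/M members higher. With it edgeR gave medians of -0.63 (G1), -1.75 (G1/S), -1.08 (G2/M), -0.89 (inhibitors), -0.0671 (transcription) and 0.20 (other), with 7 transcription members higher. For pseudocounts of 0.1, 0.5 and 1, limma gave -0.72, -0.72 and -0.72 (G1), -1.83, -1.78 and -1.72 (G1/S), 2.74, 1.61 and 1.15 (S and G2) and -1.16, -1.11 and -1.06 (G2/M), with -0.14 (transcription) at a pseudocount of 1, and again 1 G1 member and 0 G2/M members higher. Quantile normalisation gave -0.60 (G1), -1.62 (G1/S), 1.46 (S and G2), -0.9997 (G2/M), -0.75 (inhibitors) and 0.0242 (transcription), with 8 transcription members, 1 G1 member and 0 G2/M members higher. Counts divided by 4 gave 5.21 (S and G2), -1.15 (G2/M, CCNB3 untested) and -0.13 (transcription), and DESeq2 5.98 (S and G2) and -0.14 (transcription), as did RLE factors for transcription, -0.14. Inhibitor replicate 1 alone gave -1.33 (G1/S), 6.43 (S and G2), -0.74 (G2/M) and -0.86 (inhibitors), the lone library being assumed to vary like the DMSO group. For the S and G2 pair the value depends on the prior or pseudocount because CCNA1 was at 0. The CCNB3 call, the only G2/M gene called higher, was lost (0 higher) with DESeq2, without a filter, with inhibitor replicate 1 alone and with the block, and CCNB3 was not tested with counts divided by 4 (0 higher). Leaving out each library gave 0 to 1 G2/M members higher and a transcription median of -0.19 to -0.11. The CCNB1 call was lost with RLE factors, upper-quartile scaling, counts divided by 4, no filter, the 1 FPKM filter and every limma fit. These left 3 G2/M members lower. The CDKN2A call was lost with the same edgeR settings, the block and quantile normalisation, leaving 4 inhibitors lower. With inhibitor replicate 1 alone the log2 changes were -0.21 for CCNB1 and -0.10 for CDKN2A. With counts in place of FPKM, inhibitor minus DMSO shares were 0.315 (CCND1), 1.20 (CCND2), -1.52 (CCND3) and -35.9 (CCNE2) percentage points. By FPKM they were 0.379, 0.867, -1.25 and -38.4.

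Members near 0 turned sign: CCNC to -0.0698 and CCNJ to -0.0209 with inhibitor replicate 1 alone; CCNQ to 0.00813 with upper-quartile scaling; CDK8 to 0.0242, CDK19 to 0.00698 and CDKN2A to 0.0339 after quantile normalisation. Leaving out each library moved CCNC from -0.0197 to 0.0579, CCNL2 from -0.0136 to 0.0545, CDK11A from -0.00389 to 0.0228, CDK12 from -0.0032 to 0.0264 and CDK3 from -0.70 to 0.30. Where the construction does not show it, the cause was not tested.

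Deviations of same-numbered libraries correlated at 0.00049, 0.0211 and 0.00268 across genes, so no pairing by replicate number was seen over all genes. Such a correlation cannot tell whether same-numbered libraries share a batch that affects some genes. With the replicate block 26 members were called lower and 15 higher, CCNB3 (edgeR adjusted p = 0.102) and CDKN2A (0.0694) no longer passing. Depth limits the members under 1 FPKM: CCNB3 rests on 13 to 44 counts a library.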

Other observations

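Of the 15 members of the phase and inhibitor groups that fell, 10 had their lowest FPKM of the DMSO group in DMSO replicate 2 and 10 had their lowest of the inhibitor group in inhibitor replicate 2. Both held for 8 of them: CCNA2, CCNB1, CCNB2, CCNF, CDK1, CDKN1B, CDKN2C and CDKN3. Of the 5672 genes called lower in all, 35.0% were lowest in DMSO replicate 2, 40.9% in inhibitor replicate 2 and 15.8% in both. CCND3 and CDK6 did the opposite and were highest in replicate 2 of both groups. DMSO replicate 2 was also the deepest library, with 75304441 counts. Whether depth or a batch had a part in this was not tested.

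CDC14B, a phosphatase related to the CDC14 of mitotic exit, was listed at 0 in every DMSO library, as were CCNA1 and CDK20.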
